A study of Homo sapiens with 4 samples.

Results

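The Notch receptors *NOTCH1*, *NOTCH2* and *NOTCH3*, the ligands *JAG1* and *JAG2*, the target genes *HES1*, *HES4*, *HEY1* and *HEY2* and the glycosyltransferase gene *LFNG* were described in 4 RNA-seq libraries of glioblastoma (GBM) cells. These 10 genes were given by symbol and were found among the 58226 Ensembl gene IDs of the deposited files through GENCODE 29. U87MG is an established human GBM cell line, and R-U87MG is its temozolomide (TMZ)-resistant derivative, which was kept in medium with 50 μM TMZ. R-U87MG cells received non-targeting control siRNA (si-NC) or siRNA against *HDAC6*, a mostly cytoplasmic deacetylase (si-HDAC6). Parental U87MG cells received si-NC or siRNA against the long noncoding RNA *LINC00461* (si-*LINC00461*). RNA was taken 72 h after transfection, and each condition is 1 library, so no spread between cultures could be estimated and no test of a condition was made.

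Notch signaling passes between touching cells. A ligand such as JAG1 on one cell binds a Notch receptor on its neighbor, ADAM proteases and then γ-secretase cut the receptor, and the freed intracellular part joins the DNA-binding protein RBPJ to switch on genes such as *HES1* and *HEY1*, which encode transcriptional repressors. LFNG adds sugars to the receptor in the Golgi and alters which ligands activate it. In gliomas the pathway is known for its part in keeping cells stem-like, and *NOTCH3* is known as the Notch receptor of mural cells such as pericytes.

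Across the 4 libraries, *NOTCH2* was the most abundant receptor transcript per length, *JAG1* was the main Jagged ligand transcript (83.3% to 98.7% of both per length), and the 4 target genes had few counts. After si-HDAC6 none of the 7 Notch genes with enough counts to compare moved 2-fold, where 1.44% of all genes compared did. After si-*LINC00461*, *NOTCH3* rose 3.35-fold and *JAG1* fell 2.44-fold. In the R-U87MG control, *NOTCH3* was 8.87-fold lower and *LFNG* 13.9-fold lower than in the U87MG control, whereas *JAG1* was 2.06-fold higher.

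The sequences through which RBPJ is known to read DNA were searched for first, since they are the part of the target genes that receives the Notch signal. The letters searched were TGGGAA, the core of the RBPJ motif, on both strands, in the RefSeq promoters (GRCh38.p14), each holding 250 bases before the transcript start and 50 after it. The 9 genes with an entry there have 10 promoters, and 4 of the genes held the letters in any of theirs. Of 35116 promoters of all genes, counted by promoter and not by gene, 24.0% held them. The windows below show them in capitals, in the direction of the gene, as TGGGAA or, where the motif lies on the other strand, as TTCCCA.
*HES1* at chr3:194136059-194136088, plus strand, 84 and 70 bases before the start: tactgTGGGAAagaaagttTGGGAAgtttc
*HES4* at chr1:1000157-1000184, minus strand, 76 bases before the start: tggggcgagtgTGGGAAagaatgcggag
*HEY2* at chr6:125749618-125749645, plus strand, 3 bases before the start: gagttgcggcgTGGGAAagagccgctag
*LFNG* at chr7:2512513-2512540, plus strand, 5 bases before the start: tctgcaaatccTTCCCAgactaagctgc
*HEY2* held a second match 213 bases before its start, on the other strand, and a second promoter of *LFNG* held one 248 bases before its start. None of the receptor or ligand promoters held the letters. A match is a description of the letters and not evidence of binding.

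A second set of sequences concerns the si-*LINC00461* experiment. An siRNA can lower transcripts that it pairs with in part, and 7 letters of 3′ UTRs, GAACUUU, are complementary to bases 5 to 11 of the *LINC00461* siRNA as its sequence is listed. The sequence is listed as a targeted one and its strand is not stated, so whether the acting strand of the siRNA pairs with these letters is not known. If the listed strand is that of the target, the acting strand is its complement and carries these letters rather than pairing with them. These letters were picked in earlier work on the same libraries, and whether the siRNA acts through them was not tested. They occurred in an annotated 3′ UTR of 18.2% of 19459 genes (GENCODE 29 transcripts on GRCh38) and of 3 of the 10 Notch genes, which are shown because they include both *JAG1* and *NOTCH3*.
*JAG1* at chr20:10638904-10638932, minus strand: ugucaaaaguaGAACUUUguauaguuaug
*NOTCH3* at chr19:15159407-15159435, minus strand: cuuuugcucgaGAACUUUcuuuaauggag
*NOTCH2* at chr1:119914089-119914117, minus strand: cauuuaggacuGAACUUUccuuagcccaa
After si-*LINC00461* the log2 ratios were −1.29 for *JAG1*, 1.74 for *NOTCH3* and 0.20 for *NOTCH2*, the last short of 2-fold.

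The libraries held 16639551 counts (R-U87MG si-NC), 12596072 (R-U87MG si-HDAC6), 20027866 (U87MG si-NC) and 17777046 (U87MG si-*LINC00461*). A count of 3, taken as the limit of detection, equals 0.150 to 0.238 CPM, the usual scale on which counts are set to a common library total. *HDAC6* fell from 296 to 67 counts after si-HDAC6 (log2 ratio −1.74, 95% interval −2.16 to −1.36), and *LINC00461* fell from 363 to 73 counts after si-*LINC00461* (−2.12, −2.51 to −1.76). Of the 9 glioma identity markers, *VIM*, *CD44*, *EGFR* and *NES* were at 35.0 CPM or more in every library. *GFAP*, *SOX2*, *S100B* and *PTPRZ1* stayed below 1 CPM in all 4. *OLIG2* had 92 counts in R-U87MG si-NC, 115 in R-U87MG si-HDAC6, 15 in U87MG si-NC and 18 in U87MG si-*LINC00461*. *CDKN2A*, *CDKN2B* and *MTAP*, which are known to be deleted in U87MG, had at most 9 counts.

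Log2 ratios were taken after normalization with TMM and a pseudocount of 0.5 added to the counts. The pseudocount draws the ratios of genes with few counts towards a value set by the library sizes, which need not be 0. A gene with 0 counts in both libraries gets 0.39 for si-HDAC6, 0.19 for si-*LINC00461* and 0.00 for R-U87MG against U87MG. Each ratio is given with a 95% Clopper-Pearson interval, which covers the counting error of these libraries only. A gene was compared when its mean CPM over the 2 libraries was at least 1, and it is said to have risen or fallen when its ratio was at least 2-fold. Levels of different genes are compared only as CPM per kilobase of merged exons.

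Among the receptors, *NOTCH1* (ENSG00000148400, minus strand of chromosome 9 from 136494433 to 136545786), a founding member of the family, had 1013 counts in R-U87MG si-NC, 845 in R-U87MG si-HDAC6, 704 in U87MG si-NC and 632 in U87MG si-*LINC00461*. The levels were 60.9, 67.1, 35.2 and 35.6 CPM, respectively, so that both R-U87MG libraries lay above both U87MG libraries. The log2 ratio was 0.13 (−0.00 to 0.26) for si-HDAC6 against si-NC and 0.03 (−0.13 to 0.19) for si-*LINC00461* against si-NC. It was 0.53 (0.39 to 0.67) for R-U87MG against U87MG, both with si-NC. No comparison of *NOTCH1* reached 2-fold, and with both siRNAs its interval included 0. The small *LINC00461* ratio turned to −0.00 with DESeq2 size factors.

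*NOTCH2* (ENSG00000134250, minus strand of chromosome 1 from 119911553 to 120069626) encodes the receptor with the highest transcript level in these cells. It had 10096 counts in R-U87MG si-NC, 8100 in R-U87MG si-HDAC6, 16153 in U87MG si-NC and 16290 in U87MG si-*LINC00461*, or 607, 643, 807 and 916 CPM. Its log2 ratio was 0.07 (0.03 to 0.12) after si-HDAC6, 0.20 (0.17 to 0.23) after si-*LINC00461* and −0.67 (−0.71 to −0.64) in R-U87MG against U87MG. With this depth the counting intervals exclude 0 at ratios far below 2-fold, and whether such ratios exceed the spread between cultures was not tested. *NOTCH2* is also the receptor whose reads are least unique. Other genes hold 23.4% of the 50-base stretches in its transcripts, among them its partial copy *NOTCH2NLA*. The deposited values of *NOTCH2* in the U87MG libraries keep too few decimals to tell whether its fragment numbers there were whole. How shared reads were counted is not given. *NOTCH2NLA* itself had 129, 122, 154 and 157 counts in the same order. Adding both genes left the ratios of *NOTCH2* at 0.08, 0.20 and −0.67.

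*NOTCH3* (ENSG00000074181, minus strand of chromosome 19 from 15159038 to 15200981) varied most among the receptors. It had 251 counts in R-U87MG si-NC, 216 in R-U87MG si-HDAC6, 2237 in U87MG si-NC and 6580 in U87MG si-*LINC00461*, or 15.1, 17.1, 112 and 370 CPM. The 4 libraries thus fell into 3 levels, low in both R-U87MG libraries, higher in U87MG si-NC and highest in U87MG si-*LINC00461*. The log2 ratio was 0.18 (−0.09 to 0.44) after si-HDAC6 and 1.74 (1.67 to 1.81) after si-*LINC00461*, which is a higher ratio than that of 98.4% of all genes compared. In R-U87MG against U87MG the ratio of *NOTCH3* was −3.15 (−3.35 to −2.96), lower than that of all but 2.72% of genes. In bulk RNA, fewer cells that express a gene and less RNA per cell cannot be told apart.

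**Figure D1:**
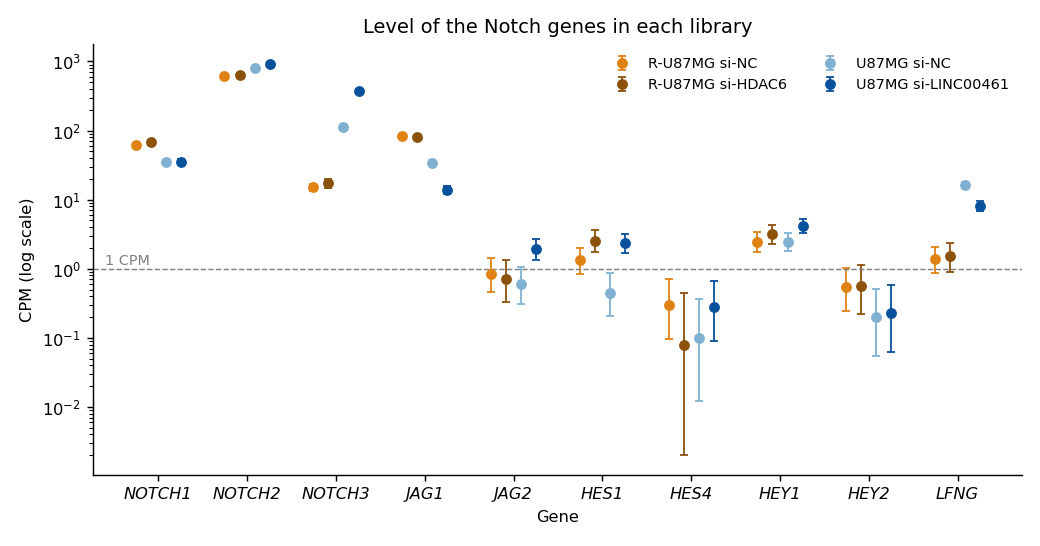
Level of each of the 10 Notch genes in the 4 libraries, in CPM on a log scale. Points are single libraries, bars are exact 95% Poisson intervals of the count and the dashed line marks 1 CPM. *NOTCH3* spans from 15.1 to 370 CPM, whereas *HES4* and *HEY2* lie below 1 CPM in all libraries.

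Measured per length, the receptor pool changed its makeup between the libraries. *NOTCH2* had 36.1 CPM per kilobase in R-U87MG si-NC, 38.3 in R-U87MG si-HDAC6, 48.0 in U87MG si-NC and 54.5 in U87MG si-*LINC00461*. *NOTCH3* had 1.61, 1.83, 11.9 and 39.4, and *NOTCH1* had 5.87, 6.46, 3.39 and 3.43. The order was *NOTCH2*, *NOTCH1*, *NOTCH3* in both R-U87MG libraries and *NOTCH2*, *NOTCH3*, *NOTCH1* in both U87MG libraries. *NOTCH3* made up 3.69% of the 3 receptors in R-U87MG si-NC and 3.92% in R-U87MG si-HDAC6. In U87MG its share was 18.8% after si-NC and 40.5% after si-*LINC00461*, where *NOTCH2* held 56.0% and *NOTCH1* 3.52%. The fourth receptor gene, *NOTCH4*, had 4 counts in U87MG si-NC and 0 in the others. *NOTCH4*, like the Delta-like ligands and *DNER* below, was singled out after its values were seen.

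Mural cell markers were read beside *NOTCH3*. Of the 5 on the list, 4 passed the filter in each comparison. *PDGFRB*, which encodes a growth factor receptor of mural cells, had 420 counts in R-U87MG si-NC, 322 in R-U87MG si-HDAC6, 3182 in U87MG si-NC and 6995 in U87MG si-*LINC00461*. Its log2 ratio was 0.01 (−0.21 to 0.22) after si-HDAC6, 1.32 (1.26 to 1.38) after si-*LINC00461* and −2.92 (−3.07 to −2.77) in R-U87MG against U87MG. The other markers did not show the levels of *NOTCH3*. *CSPG4*, the gene of the NG2 proteoglycan, was at least 2-fold lower in both of the latter comparisons, with ratios of −1.28 and −1.23, while *RGS5* had 85 to 118 counts and *ACTA2* 373 to 451. *DES*, the muscle desmin gene, had 9 counts or fewer in every library. The summed level of the list was 297 CPM in R-U87MG si-NC, 320 in R-U87MG si-HDAC6, 651 in U87MG si-NC and 609 in U87MG si-*LINC00461*, and the part of such cells in the *NOTCH3* values was not tested.

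*JAG1* (ENSG00000101384, minus strand of chromosome 20 from 10637684 to 10673999), a membrane-bound Notch ligand, had 1404 counts in R-U87MG si-NC, 1023 in R-U87MG si-HDAC6, 684 in U87MG si-NC and 246 in U87MG si-*LINC00461*. These were 84.4, 81.2, 34.2 and 13.8 CPM, so that *JAG1* was highest in the R-U87MG libraries, where *NOTCH3* was lowest. The log2 ratio was −0.07 (−0.18 to 0.05) after si-HDAC6. After si-*LINC00461*, *JAG1* fell by 1.29 (−1.504 to −1.08), below all but 5.33% of genes compared. In R-U87MG it was higher than in U87MG by 1.04 (0.91 to 1.18), an interval that spans the 2-fold threshold. Of the exon length of *JAG1*, 0.850% overlaps an antisense gene.

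*JAG2* (ENSG00000184916), the second Jagged ligand, had 14, 9, 12 and 34 counts in the same order, or 0.841, 0.714, 0.599 and 1.91 CPM. It passed the filter in the *LINC00461* comparison alone, through the si-*LINC00461* library, and rose there by 1.65 (0.70 to 2.77). With si-HDAC6 the ratio was −0.22 (−1.64 to 1.06), and in R-U87MG against U87MG it was 0.22 (−0.99 to 1.47), on too few counts to show a 2-fold difference. *JAG2* shares 7.33% of its exon length with a gene on the same strand, so that part of its counts is uncertain. Per length *JAG1* made up 98.6% of the Jagged ligands in R-U87MG si-NC, 98.7% in R-U87MG si-HDAC6, 97.5% in U87MG si-NC and 83.3% in U87MG si-*LINC00461*. The Delta-like ligands were nearly silent, with 0 counts of *DLL1* and *DLL3* in all libraries and at most 2 of *DLL4*.

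*LFNG* (ENSG00000106003, plus strand of chromosome 7 from 2512529 to 2529177) encodes lunatic fringe. It had 23 counts in R-U87MG si-NC, 19 in R-U87MG si-HDAC6, 327 in U87MG si-NC and 145 in U87MG si-*LINC00461*, or 1.38, 1.51, 16.3 and 8.16 CPM. Both R-U87MG libraries were far below both U87MG libraries, as for *NOTCH3*. In R-U87MG against U87MG the ratio of *LFNG* was −3.80 (−4.50 to −3.22), lower than that of all but 1.94% of genes. After si-HDAC6 the ratio was 0.12 (−0.84 to 1.06), an interval wide enough to hold a 2-fold rise. After si-*LINC00461* it was −0.98 (−1.28 to −0.70), which is 1.98-fold lower and just short of the threshold. With DESeq2 size factors it was −1.02 and past it, which made the Notch genes past 2-fold 5 in place of 4.

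**Figure D2:**
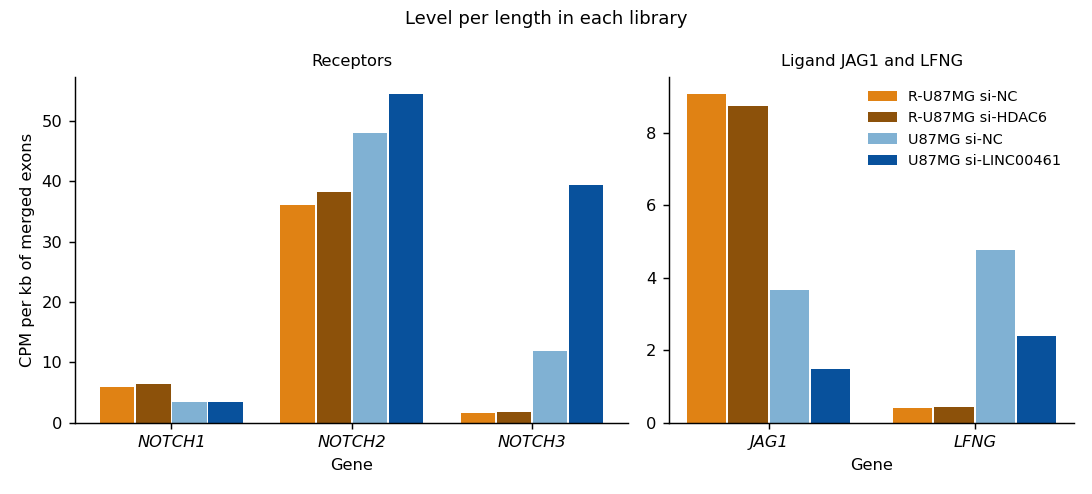
CPM per kilobase of merged exons for the 3 receptors (left) and of *JAG1* and *LFNG* (right), with 1 bar per library and bars that start at 0. *NOTCH3* reaches 39.4 after si-*LINC00461* beside 54.5 for *NOTCH2*, whereas *JAG1* is at 9.07 in R-U87MG si-NC and 1.49 in U87MG si-*LINC00461*. There is no replicate error to draw.

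The target genes were all low. *HES1* (ENSG00000114315, plus strand of chromosome 3 from 194136145 to 194138732), which encodes a basic helix-loop-helix repressor, had 22 counts in R-U87MG si-NC, 32 in R-U87MG si-HDAC6, 9 in U87MG si-NC and 42 in U87MG si-*LINC00461*. These were 1.32, 2.54, 0.449 and 2.36 CPM, and both knockdown libraries lay above their si-NC libraries. After si-HDAC6 the log2 ratio was 0.92 (0.10 to 1.79), short of 2-fold. After si-*LINC00461*, *HES1* rose by 2.35 (1.35 to 3.63), which is 5.09-fold on few counts, and it passed the filter there through the si-*LINC00461* library. In R-U87MG against U87MG it was under the filter, with a ratio of 1.25 (0.12 to 2.60). Its promoter is the one shown above with 2 matches to the RBPJ core that lie 14 bases apart.

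*HEY1* (ENSG00000164683), a relative of *HES1*, had 41, 40, 49 and 74 counts in the same order, or 2.46, 3.18, 2.45 and 4.16 CPM. The first 3 libraries were close to each other and U87MG si-*LINC00461* was highest. The ratio was 0.36 (−0.31 to 1.02) after si-HDAC6, 0.78 (0.24 to 1.33) after si-*LINC00461* and −0.25 (−0.89 to 0.37) in R-U87MG against U87MG, where it was 0.01 when scaled by total counts. No *HEY1* ratio reached 2-fold.

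*HES4* (ENSG00000188290) and *HEY2* (ENSG00000135547), both of the same repressor family, were under the filter in all comparisons. *HES4* had 5, 1, 2 and 5 counts, with ratios of −1.48 (−7.49 to 1.23), 1.32 (−1.10 to 4.90) and 1.14 (−1.29 to 4.72) for si-HDAC6, si-*LINC00461* and R-U87MG against U87MG. *HEY2* had 9, 7, 4 and 4 counts, with ratios of 0.05 (−1.63 to 1.62), 0.19 (−2.24 to 2.61) and 1.08 (−0.67 to 3.33). A difference of 2-fold was not detectable for either gene at this depth. Together the 4 target genes held 77, 80, 64 and 125 counts. Per length they summed to 1.87 CPM per kilobase in R-U87MG si-NC, 2.49 in R-U87MG si-HDAC6, 1.14 in U87MG si-NC and 2.77 in U87MG si-*LINC00461*, against 43.6, 46.6, 63.3 and 97.3 for the 3 receptors.

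**Figure D3:**
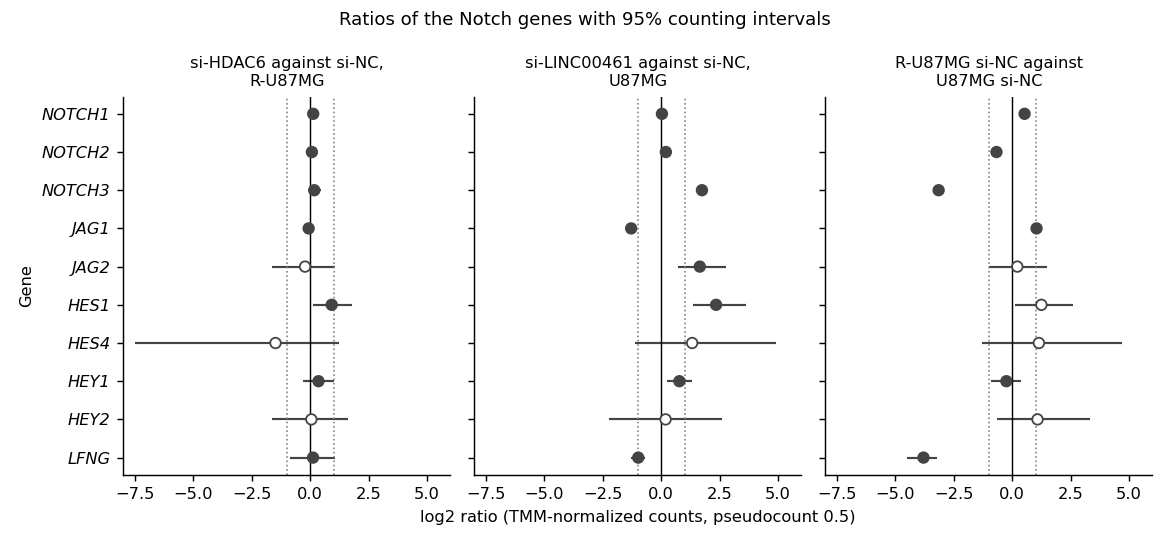
Log2 ratio of each Notch gene with its 95% counting interval (horizontal bars) in the 3 comparisons. Filled points passed the filter of a mean of 1 CPM, open points did not, and dotted lines mark 2-fold. In the si-HDAC6 panel no filled point reaches 2-fold, where 1.44% of all genes compared did. *NOTCH3* lies at 1.74 in the si-*LINC00461* panel and at −3.15 in the right panel.

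The si-HDAC6 comparison asked which transcripts depend on HDAC6 in resistant cells. Of the 10 Notch genes 7 could be compared. At least 2-fold lower were 0 of them, against 0.747% of all 13120 genes compared, and at least 2-fold higher were also 0, against 0.694% (1.44% either way). Intervals above 0 were those of *NOTCH2* and *HES1*, against 13.8% of all genes, no interval lay below 0, against 16.4%, and 5 included 0. The median ratio was 0.13 for the Notch genes and −0.01 for all genes. The count is no different from what the background share gives for 7 genes, and nothing about the Notch genes is read from it. *NOTCH1*, *NOTCH2* and *JAG1* had intervals within 2-fold on both sides, as did *NOTCH3*, whereas the intervals of *LFNG*, *HEY1* and *HES1* reached beyond 2-fold higher.

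The si-*LINC00461* comparison asked which transcripts depend on *LINC00461* in parental cells. Of the 8 Notch genes compared, *JAG1* was at least 2-fold lower, where 8.17% of all 13210 genes were, and *NOTCH3*, *JAG2* and *HES1* were at least 2-fold higher, where 5.42% were. The interval lay wholly beyond 2-fold for *JAG1* (4.78% of all genes) and for *NOTCH3* and *HES1* (2.88%). *JAG2* and *HES1* entered only because they were high in si-*LINC00461*, so the count of 3 is a description. The same holds for the place of *HES1* beyond 2-fold, the 5 intervals above 0 and the median, in which these genes enter. Intervals lay above 0 for 5 of the 8 genes (33.1% of all genes) and below 0 for *JAG1* and *LFNG* (33.4%). The median ratio was 0.49, beside −0.00 over all genes. In this pair of libraries the level of the receptor *NOTCH3* was higher and that of the ligand *JAG1* was lower. Endothelial markers, read because *DLL4* and *JAG1* are also active in vessels, went from a summed 13.3 to 36.2 CPM, and *PECAM1* made most of this with 52 and 433 counts. Of the other 4 markers, *VWF* and *CDH5* had 8 and 7 counts in the control and 16 and 14 after the knockdown, while *KDR* had 115 and 107 and *TEK* 85 and 74. The part of such cells was not tested.

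R-U87MG and U87MG, both with si-NC, were compared to describe the resistant line beside its parent. These are the control libraries of both knockdowns, and with 1 library each the line, the culture with TMZ and any difference in handling cannot be told apart. Of the 6 Notch genes compared, *NOTCH3* and *LFNG* were at least 2-fold lower, where 15.0% of all 13349 genes were, and *JAG1* was at least 2-fold higher, where 11.2% were. With upper-quartile scaling *JAG1* was at 0.996 and no longer past the threshold, which left 2 genes. The intervals of *NOTCH3* and *LFNG* lay wholly beyond 2-fold lower (10.8% of all genes), and none lay wholly beyond 2-fold higher (6.34%). The intervals of *NOTCH2*, *NOTCH3* and *LFNG* lay below 0 (38.8% of all genes) and those of *NOTCH1* and *JAG1* above 0 (39.4%). The median ratio was −0.46, beside 0.02 over all genes. With total counts in place of TMM the median of all genes moved by 0.26, and the share of lower genes among those past 2-fold went from 57.3% to 38.4%. On that scale *NOTCH3* was at −2.89 and *JAG1* at 1.30, so that both kept their directions.

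The responses to the 2 siRNAs were measured in different lines and their difference was not tested. *NOTCH3* had a ratio of 0.18 after si-HDAC6 and 1.74 after si-*LINC00461*. For *JAG1* the values were −0.07 and −1.29, and for *HES1* they were 0.92 and 2.35. *LINC00461* itself had 154 counts in the R-U87MG control and 80 after si-HDAC6, a ratio of −0.55 (−0.96 to −0.15), which is short of 2-fold.

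A list of 80 other genes of the pathway was then described by role. After si-HDAC6, 54 were compared, 0 were at least 2-fold lower, where 0.747% of all genes were, and *MAML1* alone was higher, where 0.694% were. *MAML1*, a coactivator that holds the Notch complex together on DNA, went from 8 counts to 26, a ratio of 2.03 (0.91 to 3.45), and it passed the filter through the si-HDAC6 library. Its level in the U87MG libraries was 34 and 25 counts. The median of the 54 genes was −0.01, and 34 intervals included 0.

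After si-*LINC00461*, 55 were compared, 5 were at least 2-fold lower and 4 higher, with a median of 0.12, and 12 intervals included 0. The share past 2-fold among all genes, 13.6% (8.17% lower and 5.42% higher), gives the scale for these counts. Of the 9 proteases of the list 2 were at least 2-fold higher (5.42% of all genes) and 0 lower (8.17%). Their median was 0.60, and 1 of the 9 had a ratio below 0, beside 6630 of all 13210 genes. *FURIN*, which cuts the receptor precursor, rose from 3238 to 6982 counts (1.30, 1.24 to 1.36). *NCSTN*, the nicastrin subunit of γ-secretase, rose from 3088 to 5597 counts (1.05, 0.98 to 1.11). *ADAM10*, which makes the first cut after ligand binding, had 6583 and 9428 counts (0.71, 0.66 to 0.75), while *APH1B*, another γ-secretase subunit, had 1495 and 1043 (−0.33, −0.45 to −0.22).

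Among the nuclear partners, *MAML3*, a coactivator, rose from 396 to 726 counts (1.06, 0.88 to 1.24), and *KAT2B*, an acetyltransferase, fell from 982 to 401 (−1.10, −1.28 to −0.94). The corepressor *TLE4* fell from 533 to 140 counts (−1.74, −2.02 to −1.47). The fragment number of *TLE4* was not whole in U87MG si-NC. Of the genes for ubiquitination, *NEURL1B*, a ligase that promotes uptake of ligands, fell from 245 to 42 counts (−2.34, −2.87 to −1.88), and *NEDD4* fell from 4232 to 1403 (−1.41, −1.49 to −1.32). *MFAP2*, a matrix glycoprotein that can bind Jagged ligands, rose from 1248 to 2509 counts (1.19, 1.10 to 1.29).

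Of the other target genes, *MYC*, a growth regulator with many inputs beside Notch, fell from 1449 to 297 counts (−2.10, −2.28 to −1.92) in the libraries where *HES1* rose. *HES6* had the highest level per length among the other HES and HEY genes, with 72, 75, 65 and 60 counts and an interval that included 0 in each comparison. *HES3* and *HES5* had 0 counts in all libraries. *POFUT1*, the fucosyltransferase that modifies the receptor before LFNG does, was the most abundant of the other glycosyltransferases, with 4088 counts in the U87MG control and 6391 after si-*LINC00461* (0.83, 0.78 to 0.89). *DNER*, a noncanonical ligand, had 3898 to 8566 counts and was the ligand-like gene with the highest level per length, from 78.5 to 122 CPM per kilobase.

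**Figure D4:**
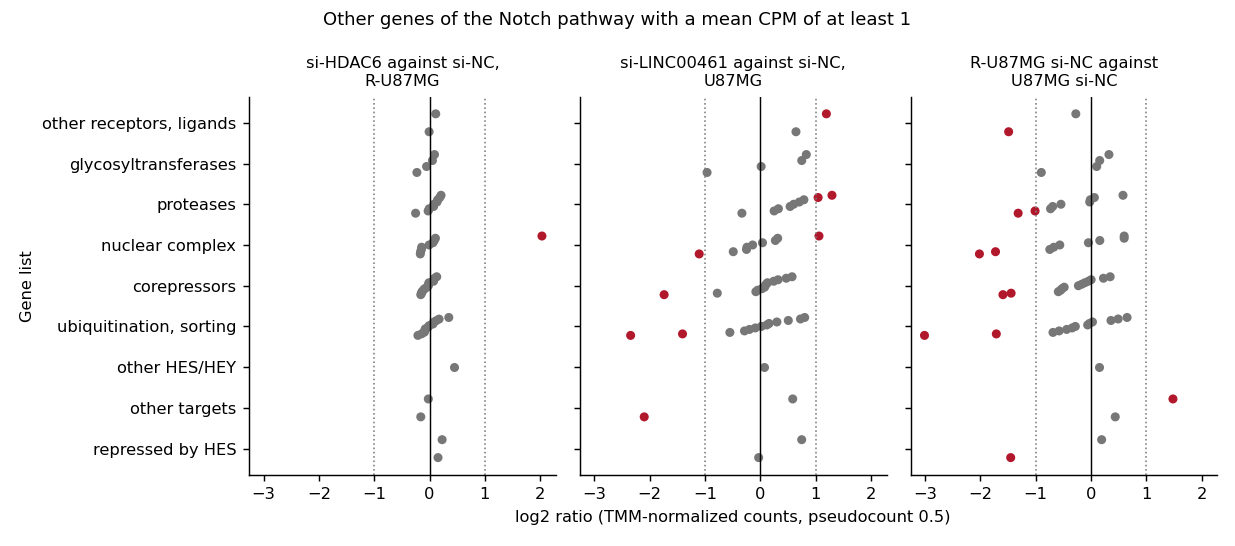
Log2 ratio of the other pathway genes that passed the filter, by list, in the 3 comparisons. Each point is 1 gene, red points are past 2-fold and dotted lines mark 2-fold. *MAML1* is the red point in the left panel at 2.03. In the middle panel 2 of the 9 proteases are past 2-fold, at 1.30 and 1.05, beside 13.6% of all genes.

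In R-U87MG against U87MG, 55 of the listed genes were compared, 10 were at least 2-fold lower and 1 higher. Of all genes 15.0% were lower and 11.2% higher, or 26.2% past 2-fold. The median was −0.23, and 11 intervals included 0. Genes of most roles were among the 10. *MFAP2* had 1248 counts in U87MG and 443 in R-U87MG (−1.49, −1.65 to −1.33), *ADAM10* had 6583 and 3256 (−1.01, −1.07 to −0.95), and *APH1B* had 1495 and 598 (−1.32, −1.46 to −1.18). The coactivators *MAML1*, with 34 and 8 counts, and *MAML3* had ratios of −2.02 (−3.41 to −0.95) and −1.73 (−2.04 to −1.43), and the corepressors *TLE3* and *TLE4* had −1.45 and −1.59. The ubiquitin ligase genes *MIB2*, whose product acts on ligands, and *DTX4* had −1.71 (−1.89 to −1.54) and −3.01 (−4.62 to −1.89). *MAML1* and *DTX4*, the latter with 52 and 6 counts, passed the filter through the U87MG library alone, so their place among the 10 is a description. *CDKN1B*, a cell cycle inhibitor gene that HES1 is known to repress, was at −1.45 (−1.57 to −1.34), and *CDKN1A*, on the same list, was at 0.19 (0.14 to 0.24). After si-*LINC00461* they were at 0.75 (0.67 to 0.83) and −0.03 (−0.09 to 0.03). The part of HES1 in these values was not tested.

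*CCND1*, the cyclin D1 gene, was the 1 listed gene at least 2-fold higher in R-U87MG, with 42020 counts beside 15102 in the U87MG control (1.48, 1.45 to 1.51). At counts this large the deposited values keep too few decimals to tell whether its fragment numbers were whole. *NEURL1B*, *NEDD4* and *MYC* had ratios of 0.65, 0.36 and 0.44 in this comparison. These 3 genes are among the 5 listed genes at least 2-fold lower after si-*LINC00461*. The others, *KAT2B* and *TLE4*, had ratios of −0.75 and −1.59 in R-U87MG against U87MG.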

How the data were processed

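Total RNA of 4 cultures was sequenced, 1 library per condition. Reads were handled, per the submitters' processing notes, with bcl2fastq, Trimmomatic 0.36 and HISAT2 on GRCh38.p13, and the counting program is not given in the sources used here. The authors deposited 1 value per Ensembl gene, read here as an estimated count of fragments times a factor of the library. The factors (0.869, 1.15, 0.939 and 1.06) are not stated in the sources and were inferred from the values, of which 93.4% to 94.1% of those above 0 were whole multiples within 0.02. Large deposited values keep too few decimals to meet this tolerance reliably. Plain counts had been foreseen, so values were divided by the factor and rounded. All printed counts rest on this. The 58226 IDs were matched to GENCODE 29, which holds 57888 of them.

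Ratios used TMM (edgeR 4.0.16, R 4.3.3) over all genes. With 1 library per condition there was no test. Named were the 10 Notch genes and, of each pathway list, the genes past 2-fold in any comparison, otherwise the gene with the highest level per length. *NOTCH4*, the Delta-like ligands, *DNER*, *HES3*, *HES5* and *CDKN1A* were named outside this rule. The genes and lists were chosen with earlier results of these data known. The method was tested on simulated counts with counting error alone, so that test does not cover the spread between cultures. Alternatives were other scalings (DESeq2 1.42.0 among them), pseudocounts, filters and thresholds, and thinned libraries. Adding *NOTCH2NLA* to *NOTCH2* was chosen after seeing the data. Python 3.11.15, pandas 2.3.3, scipy 1.17.1 and matplotlib 3.10.9 were used. The study's other assays were not used here.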

Additional observations from a re-analysis of the deposited data

How the results depend on the processing

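No paired analysis was possible because each condition is 1 library. Of 144 alternative values of 21 Notch gene ratios, 138 stayed within the counting interval, 6 did not, and 2 ratios under 2-fold changed sign (*NOTCH1* after si-*LINC00461* and *HEY1* in R-U87MG against U87MG). Those outside were *NOTCH2* after si-*LINC00461* with DESeq2 size factors (0.17) and, in R-U87MG against U87MG, *NOTCH2* with upper-quartile scaling (−0.72) and *NOTCH1* (0.79), *NOTCH2* (−0.41), *NOTCH3* (−2.89) and *JAG1* (1.30) with total counts.

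Of 105 alternative counts and shares, 77 stayed within 1.5 times. After si-HDAC6 the Notch genes past the threshold went from 0 to 1 at 1.5-fold (*HES1*) and 1 with no filter (*HES4*), and the other pathway genes from 1 to 10 with no filter, 0 at a mean CPM of at least 5 and 0 with the interval wholly beyond 2-fold. The share of all genes went from 1.44% to 0.877% with a pseudocount of 5, 5.20% at 1.5-fold, 0.175% at 4-fold, 0.244% with the interval beyond 2-fold, 24.9% with no filter and 0.298% at 5 CPM, and the lower genes among those called went from 51.9% to 37.4% with a pseudocount of 5. After si-*LINC00461* the Notch genes went from 4 to 1 at 4-fold (*HES1*) and 2 at 5 CPM (*NOTCH3* and *JAG1*), and the pathway genes from 9 to 21 at 1.5-fold, 2 at 4-fold and 21 with no filter. The share of all genes went from 13.6% to 31.0% at 1.5-fold, 2.91% at 4-fold, 7.65% with the interval and 34.7% with no filter. In R-U87MG against U87MG the Notch genes went from 3 to 6 with no filter (adding *HES1*, *HES4* and *HEY2*), and the pathway genes from 11 to 21, 2 and 22 at 1.5-fold, at 4-fold and with no filter, where the share of all genes was 48.1%, 7.83% and 45.2%, and 17.2% with the interval. Looser thresholds and no filter call more by construction. Depth limits *JAG2*, *HES1*, *HES4*, *HEY1* and *HEY2*, and no replicate limits every gene.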
